A study of Mus musculus with 28 samples.

Results

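The 9 genes described here make, remove, carry or answer to retinoic acid, and they were picked by gene symbol from the 28244 genes of the count table. Their counts were read in all 28 samples of 11 groups. *Aldh1a1*, *Aldh1a2* and *Aldh1a3* encode the retinaldehyde dehydrogenases that make retinoic acid. *Cyp26a1*, *Cyp26b1* and *Cyp26c1* encode the cytochrome P450 enzymes that degrade it. *Crabp1* and *Crabp2* encode the proteins that bind it in the cytoplasm, and *Rarb* encodes retinoic acid receptor beta.

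Retinoic acid is made from vitamin A in a pair of oxidation steps, from retinol to retinal and from retinal to retinoic acid, and the last step is not reversible in cells. It binds nuclear receptors of the RAR family, which sit on DNA as partners of RXR receptors and switch target genes on when the ligand is bound. *Rarb*, *Cyp26a1*, *Dhrs3* and the anterior *Hox* genes are known targets, and in the embryo the balance of ALDH1A and CYP26 enzymes sets where along the neural tube, limb and lung the signal is received.

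The study asked whether neural stem cells (NSCs) exist outside the central nervous system. It derived peripheral NSCs (pNSCs) from lung, tail and dorsal root ganglia (DRG) and compared their RNA with that of brain NSCs, of cells of the tissue of origin and of neural crest stem cells (NCSCs). The first experiment held Brain-NSC, Tail-pNSC, Lung-pNSC, Tail and Lung, with 2 samples each. From the study's methods, Brain-NSC lines grew from whole dissociated brain, and Lung-pNSC and Tail-pNSC lines from sorted GFP-positive cells of adult lung and postnatal tail of mice with a GFP transgene for the neural progenitor protein Nestin (Nes-GFP). This assignment rests on the matching group names because the labels of these samples do not state the transgene. The second experiment held Wnt1Cre-mTmG brain NSCs, Tail pNSCs and DRG pNSCs and wild-type DRG NCSCs, with 3 samples each. Wnt1-Cre is driven by a promoter active in the early neural crest and switches the mTmG reporter from Tomato to GFP, and the study describes its pNSCs as Tomato-positive and GFP-negative. The third experiment held Sox2-GFP knock-in brain NSCs and lung pNSCs from postnatal lung, with 3 samples each, and was set against the same 2 Lung samples. Adult mice were about 4 to 6 weeks old and postnatal mice about 1 to 5 days. The Wnt1Cre-mTmG pNSCs came from postnatal mice and the DRG NCSCs from adult mice, and the age of the brains is not given per sample. The study's methods list tail cells as postnatal and lung cells as adult or postnatal.

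Brain NSCs and pNSCs grew in a serum-free medium with EGF and bFGF and a B27 supplement that lacks vitamin A, and pNSC lines were started from single picked clusters. All labels give the strain as C57BL/6, while the study's methods describe mixed CD1 backgrounds. Whether the Tail and Lung cells had been cultured before RNA was taken is not given in the sources used here. The study calls the samples of a group biological replicates, but nothing in the labels says that they came from separate animals or cultures, so every p-value below measures only the spread between these samples.

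The totals lay from 16700710 to 22637031 counts in 22 samples and from 9808246 to 11431445 counts in the 6 samples of Wnt1Cre-mTmG brain NSCs and DRG pNSCs. A count of 3, taken as the smallest detectable amount, therefore stood for 0.131 to 0.191 cpm (a gene's share of its library's scaled total count, in parts per 1000000) in the deeper samples and 0.253 to 0.294 cpm in the 6 shallower ones. DRG NCSCs replicate 3 stood apart from the other NCSC samples, with squared differences 19.7 to 24.8 times those of counting error per gene, against 1.09 to 2.97 for all other replicate pairs. The 6 neural stem cell markers, with *Sox2*, *Nes* and *Olig2* among them, summed to 2358 to 3612 cpm in the 8 NSC and pNSC groups, to 1383 to 1753 cpm in the DRG NCSCs, of which *Nes* made up 1295 cpm and *Sox2* 227 cpm on average, and to 80.6 to 309 cpm in Tail and Lung. The 6 neural crest and Schwann markers summed to 4291 to 4395 cpm in the DRG NCSCs and to 3.87 to 73.4 cpm in the NSC and pNSC groups. The DRG NCSCs carry the cell type label NSC, and *Olig2* was at 15.01 cpm in them against 894 cpm or more in each NSC and pNSC group. In bulk samples, fewer cells of a type and less RNA per cell cannot be told apart.

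Levels below are cpm with edgeR's TMM library scaling over all 28 samples, as mean ± s.d., with n = 2 in the first experiment and n = 3 in the others. A gene is said to have risen or fallen where edgeR's quasi-likelihood test, fitted over all groups of an experiment, gave a Benjamini–Hochberg adjusted p under 0.05 and a log2 fold change of at least 1 in size. Of the 9 genes, 8 passed the filter on low counts in the first experiment, 7 in the second (*Cyp26a1* did not) and 6 in the third (*Crabp2* did not either). *Cyp26c1* was tested in none of them. Several genes passed this filter through 1 group alone, so that a difference from that group had to appear. These were *Cyp26a1* and *Crabp2* through Tail in the first experiment, *Aldh1a2*, *Cyp26b1* and *Crabp2* through the DRG NCSCs in the second, and *Aldh1a2* and *Crabp1* through Lung in the third.

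**Figure D1:**
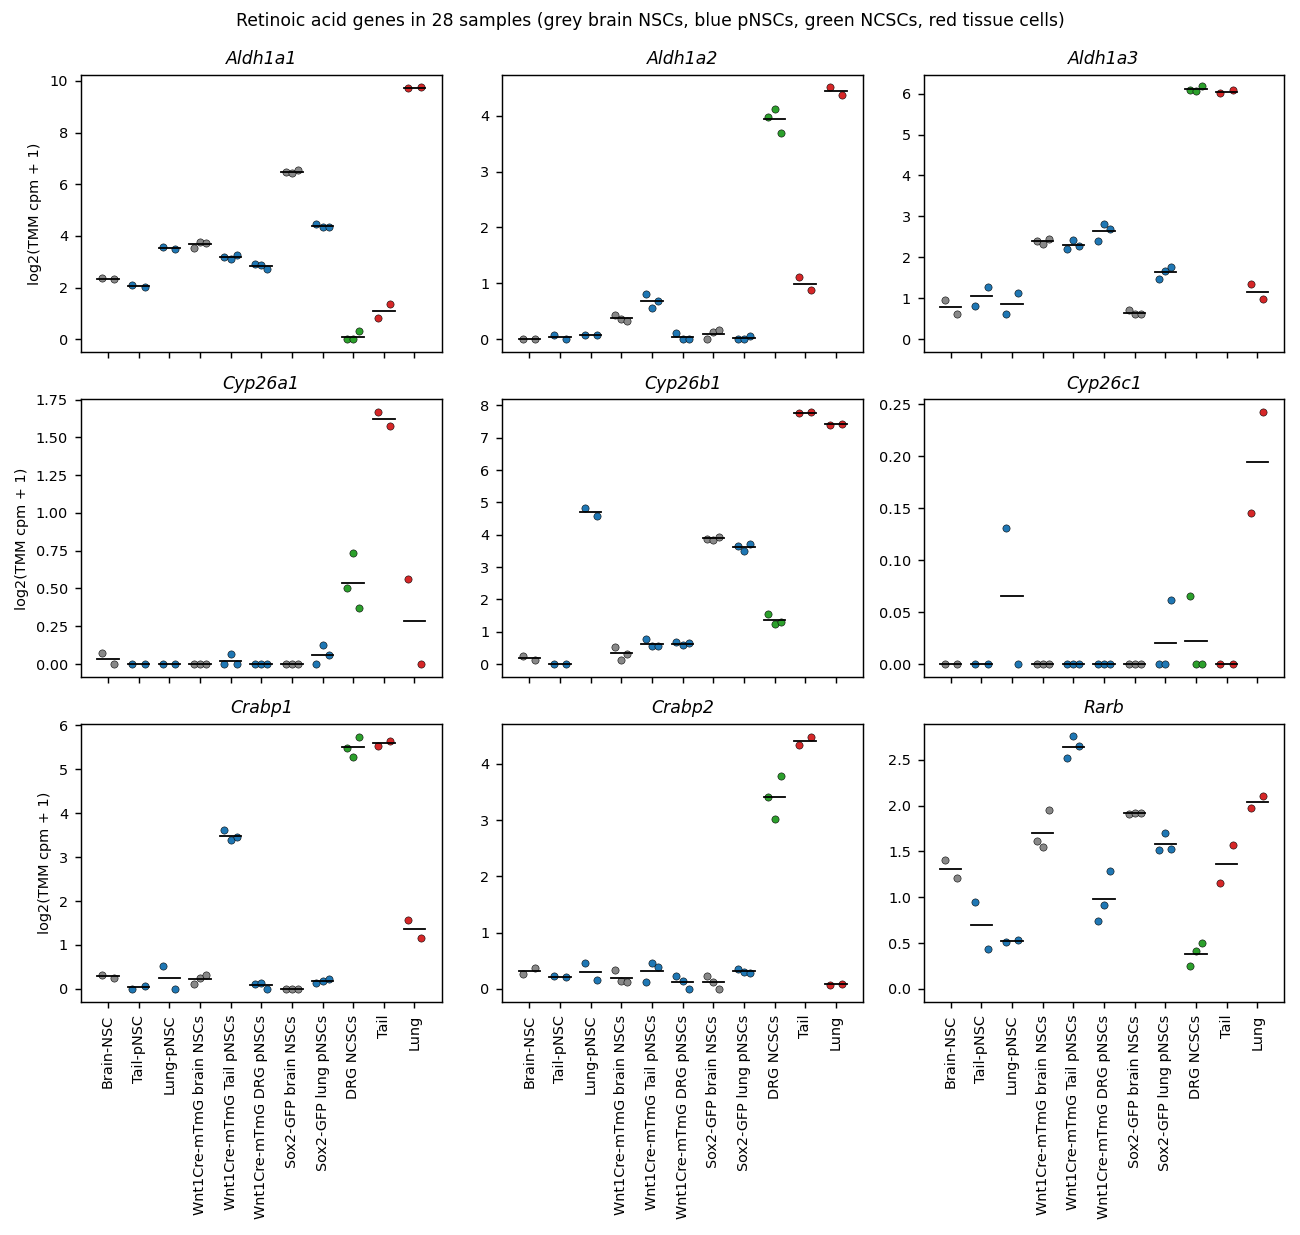
Level of each retinoic acid gene in the 28 samples, as log2(TMM cpm + 1) on the vertical axis, which has its own scale in each panel, with the 11 groups along the horizontal axis. Points are samples and bars are group means of the log2 values. *Aldh1a1* reached 845 and 867 cpm in Lung, *Crabp1* was high in Wnt1Cre-mTmG Tail pNSCs and no other pNSC or brain NSC group, and *Cyp26c1* stayed at 3 counts or fewer in every sample.

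Among the synthesis enzymes, *Aldh1a1* had the widest range of levels. The gene lies on chromosome 19 from 20492715 to 20643465 in GRCm38, on the plus strand, and overlaps C730002L08Rik and the pseudogene Gm6684 on the other strand. The library kit does not mark strand, so reads from such overlaps cannot be told apart. In Lung it stood at 845 and 867 cpm, a mean of 856 ± 15.4. The Sox2-GFP brain NSCs followed at 88.6, 86.1 and 92.4 cpm, and the Sox2-GFP lung pNSCs at 21.1, 19.3 and 19.1 cpm. Neither of these groups overlapped another.

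Wnt1Cre-mTmG brain NSCs (10.7, 12.7 and 12.4 cpm) and Lung-pNSC (10.9 and 10.1 cpm) were neighbours whose samples overlapped. Below them came Wnt1Cre-mTmG Tail pNSCs at 8.05 ± 0.596 cpm and DRG pNSCs at 6.15 ± 0.519 cpm, then Brain-NSC at 4.04 ± 0.103 and Tail-pNSC at 3.15 ± 0.134 cpm. The lowest were Tail, with 0.781 and 1.59 cpm, and the DRG NCSCs, where replicates 1 and 2 had no count and replicate 3 had 4. The 3 groups of brain NSCs thus lay at 4.04, 11.9 and 89.0 cpm. They belong to different experiments, and reporter line and experiment cannot be told apart.

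Against the brain NSCs of its own experiment, *Aldh1a1* rose in Lung-pNSC and fell in Sox2-GFP lung pNSCs. The log2 fold change was 1.36 (SE 0.121, edgeR adjusted p = 9.67e-26) in Lung-pNSC, a 2.60-fold difference. In Sox2-GFP lung pNSCs it was -2.14 (SE 0.0411), 4.48-fold lower, with an adjusted p that R returned as 0. Markers of other cells were also lower in that line, with sums of 10.46 to 11.1 cpm for neural crest and Schwann markers and 21.4 to 24.5 cpm for fibroblast markers, against 69.0 to 73.4 and 95.0 to 102 cpm in Sox2-GFP brain NSCs, and their part in the difference was not tested. Both lung lines were far below Lung cells, 81.4-fold for Lung-pNSC and 43.1-fold for Sox2-GFP lung pNSCs. Tail-pNSC went the other way from its tissue and was 2.65-fold above Tail (log2 fold change 1.33, SE 0.234, adjusted p = 1.62e-07). Without Tail replicate 1 this last value was 0.88 and did not pass. DRG pNSCs (log2 fold change -0.95) and Wnt1Cre-mTmG Tail pNSCs (-0.59) were below their brain NSCs by less than the limit of 1, with adjusted p of 0.000141 and 0.00159.

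*Aldh1a2*, the main retinoic acid-making enzyme of the early embryo (chromosome 9, 71215789 to 71296243, plus strand, with the pseudogene Gm48124 on the other strand), was a gene of Lung and the DRG NCSCs. Lung had 21.8 and 19.8 cpm and the DRG NCSCs 14.8, 16.4 and 11.99 cpm, with no overlap between these groups. Tail came next at 1.17 and 0.829 cpm. Of the NSC and pNSC groups, Wnt1Cre-mTmG Tail pNSCs held 17, 10 and 12 counts and the Wnt1Cre-mTmG brain NSCs 4, 3 and 3 counts. The other 6 groups had at most 2 counts in any sample and overlapped their neighbours in the order of levels.

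*Aldh1a2* fell in both lung lines against Lung, with a ratio of 406 for Lung-pNSC (95% exact counting interval 112 to 3362) and of 1366 for Sox2-GFP lung pNSCs (244 to 54015). These intervals cover counting error only. It was 48.1-fold higher in the DRG NCSCs than in Wnt1Cre-mTmG brain NSCs. Wnt1Cre-mTmG Tail pNSCs exceeded DRG pNSCs, which had 1 count in all, by a ratio of 19.9 (3.36 to 804, log2 fold change 3.98, adjusted p = 0.000392). The fall of *Aldh1a2* in DRG pNSCs against brain NSCs (log2 fold change -2.99, adjusted p = 0.0284) rested on 10 counts against 1 in libraries of the lowest depth. It did not pass without DRG pNSCs replicate 2 or 3 or without brain NSCs replicate 1 or 2.

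*Aldh1a3* (chromosome 7, 66390890 to 66427517, minus strand) split the groups into 2 sets of levels. The DRG NCSCs stood at 66.6, 65.5 and 71.9 cpm and Tail at 63.6 and 67.0 cpm, and these groups overlapped. All others were at or below 5.98 cpm. The Wnt1Cre-mTmG lines came first among them, with 5.25 ± 0.854 cpm in DRG pNSCs, 4.27 ± 0.209 in brain NSCs and 3.92 ± 0.376 in Tail pNSCs, each overlapping the next. Sox2-GFP lung pNSCs had 1.76, 2.17 and 2.42 cpm, above the Sox2-GFP brain NSCs at 0.642, 0.522 and 0.522 cpm with no overlap. That rise was 3.76-fold (log2 fold change 1.94, SE 0.284, adjusted p = 2.48e-11). Lung, Tail-pNSC, Lung-pNSC and Brain-NSC lay between 0.521 and 1.54 cpm, each overlapping the next in that order, and Lung (1.54 and 0.976 cpm) did not overlap Brain-NSC (0.953 and 0.532 cpm).

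Against Tail, *Aldh1a3* was 59.9-fold lower in Tail-pNSC. Against the DRG NCSCs it was 17.3-fold lower in Wnt1Cre-mTmG Tail pNSCs and 12.9-fold lower in DRG pNSCs. Tail and Lung cells therefore differed in which dehydrogenase they carried. Per kilobase of exon, so that genes can be compared, Lung had 173 cpm of *Aldh1a1*, 9.18 of *Aldh1a2* and 0.272 of *Aldh1a3*, and Tail had 0.241, 0.442 and 14.1 cpm of the same genes. The DRG NCSCs had 0.0159, 6.36 and 14.7 cpm per kilobase. In 7 of the 8 NSC and pNSC groups *Aldh1a1* was the highest of the 3 on this scale, from 0.638 cpm per kilobase in Tail-pNSC to 18.0 in Sox2-GFP brain NSCs. In DRG pNSCs *Aldh1a1* (1.24 ± 0.105 cpm per kilobase) and *Aldh1a3* (1.14 ± 0.185) overlapped. Exon lengths came from GENCODE M21, and the annotation the counts were made with is not given in the sources used here.

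Of the degrading enzymes, *Cyp26b1* carried nearly all the counts. The gene lies on chromosome 6 from 84571414 to 84593908 on the minus strand and overlaps no annotated gene. Tail had 215 and 221 cpm and Lung 167 and 171 cpm. Lung-pNSC followed at 27.6 and 23.0 cpm, Sox2-GFP brain NSCs at 13.7, 13.3 and 14.3 cpm, and Sox2-GFP lung pNSCs at 11.5, 10.4 and 12.04 cpm. These 5 groups did not overlap one another.

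The DRG NCSCs came next at 1.59 ± 0.285 cpm. Wnt1Cre-mTmG DRG pNSCs (7, 5 and 6 counts) and Tail pNSCs (16, 10 and 9 counts) overlapped in cpm, as did Wnt1Cre-mTmG brain NSCs (5, 1 and 3 counts) and Brain-NSC (4 and 2 counts). Tail-pNSC had no *Cyp26b1* count in either library, although it was derived from the tissue with the highest level. That level was at least 1334-fold lower than in Tail and at least 155-fold lower than in Lung-pNSC, taking 3 counts per library as the limit.

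*Cyp26b1* was 170-fold higher in Lung-pNSC than in Brain-NSC (log2 fold change 7.34, SE 0.209, adjusted p = 2.83e-265). In the Sox2-GFP experiment the same kind of comparison gave a log2 fold change of -0.25 (SE 0.0769, adjusted p = 0.00187), below the limit of 1. The lung lines of both experiments held more than 10 cpm, and the brain NSCs differed, with 0.149 ± 0.0734 cpm in Brain-NSC and 13.8 ± 0.528 cpm in Sox2-GFP brain NSCs. Against Lung, Lung-pNSC was 6.67-fold lower and Sox2-GFP lung pNSCs were 14.9-fold lower. The call in Tail-pNSC against Brain-NSC (log2 fold change -4.51, adjusted p = 0.0120) rested on 6 counts against none, and no fold is given for it. It did not pass without Brain-NSC replicate 1 or without either Tail-pNSC sample.

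*Cyp26a1* (chromosome 19, 37697798 to 37701536, plus strand), the CYP26 enzyme best known for being switched on by retinoic acid, was present in Tail at 39 and 31 counts (2.08 ± 0.141 cpm). The DRG NCSCs had 9, 14 and 5 counts. Lung replicate 1 had 9 counts and Lung replicate 2 none. The remaining 8 groups had at most 2 counts in any sample, so that *Cyp26a1* was not detectable there at this depth. In Tail-pNSC it was at least 12.7-fold lower than in Tail, the group through which it passed the filter, and DESeq2 did not make this call. The fall in Lung-pNSC against Lung (adjusted p = 0.00252) rested on Lung replicate 1 alone, and the log2 fold change was 0 without that sample. *Cyp26c1*, its neighbour on the same strand (chromosome 19, 37685581 to 37693398), had 9 counts over the 28 samples, in 5 of them, and no sample had more than 3.

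Upstream windows from the RefSeq start were available for 7 of the genes, with 8 windows in all. They were searched for a retinoic acid response element of the DR5 kind, a direct repeat of half-sites 5 bases apart, because this is the textbook element of *Rarb* and *Cyp26a1*. The half-sites allowed were AGGTCA or AGTTCA and likewise GGGTCA or GGTTCA, on both strands, with spacers of 1 (DR1), 2 (DR2) or 5 (DR5). DR5 was found in the windows of *Rarb* and *Cyp26a1* and in 32 of all 32851 windows of 300 bases (0.0974%). DR1 and DR2 occurred in 0.222% and 0.268% of all windows and in none of these genes. The 250 bases before each start are printed 5′ to 3′ on the strand of the gene with the DR5 match in capitals, from RefSeq on GRCm38.p6. The *Rarb* window is chr14:16575477-16575726 on the minus strand and its match lies 53 to 37 bases upstream of the start. The *Cyp26a1* window is chr19:37697558-37697807 on the plus strand and its match, 32 to 16 bases upstream, reads as a direct repeat on the opposite strand.
Rarb: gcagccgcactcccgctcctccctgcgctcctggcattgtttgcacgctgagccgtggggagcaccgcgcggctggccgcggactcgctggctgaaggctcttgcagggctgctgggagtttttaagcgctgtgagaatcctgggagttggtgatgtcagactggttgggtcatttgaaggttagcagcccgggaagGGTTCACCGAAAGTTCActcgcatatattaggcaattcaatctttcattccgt
Cyp26a1: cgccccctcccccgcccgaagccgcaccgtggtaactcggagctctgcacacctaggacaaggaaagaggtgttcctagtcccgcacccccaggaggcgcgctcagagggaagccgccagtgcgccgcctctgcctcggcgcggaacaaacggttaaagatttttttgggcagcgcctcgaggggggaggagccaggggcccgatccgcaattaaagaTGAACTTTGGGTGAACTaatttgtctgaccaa
A match describes these letters and says nothing of whether a receptor was bound. The genes that share it did not share a pattern of levels, since *Cyp26a1* was highest in Tail and *Rarb* in Wnt1Cre-mTmG Tail pNSCs.

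*Crabp1* (chromosome 9, 54764748 to 54773110, plus strand), the cytoplasmic retinoic acid-binding protein that is marked in neural crest and hindbrain of the embryo, separated the Wnt1Cre-mTmG Tail pNSCs from every other NSC and pNSC group. Tail had 45.2 and 48.8 cpm and the DRG NCSCs 43.8, 38.0 and 52.2 cpm, and these groups overlapped. Wnt1Cre-mTmG Tail pNSCs followed at 11.3, 9.45 and 9.95 cpm, from 255, 203 and 196 counts. Lung had 37 and 20 counts. In the other 7 groups no sample had more than 9 counts, and 4 of the 7 were at 3 counts or fewer in all samples.

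The rise of *Crabp1* in Wnt1Cre-mTmG Tail pNSCs gave a ratio of 57.2 against their brain NSCs (95% exact counting interval 26.1 to 156, log2 fold change 5.76, SE 0.341, adjusted p = 1.09e-10). Against DRG pNSCs the ratio was 166 (45.9 to 1378, adjusted p = 7.50e-11). The level remained 4.37-fold below the DRG NCSCs. Fibroblast markers were also higher in this line than in its brain NSCs. The 6 fibroblast markers summed to 418 to 428 cpm in Wnt1Cre-mTmG Tail pNSCs, with none of the 6 at 0. They summed to 33.1 to 33.9 cpm in the brain NSCs, 29.0 to 32.6 cpm in DRG pNSCs and 10.4 to 11.4 cpm in Tail-pNSC. The sums were 2822 to 3478 cpm in the DRG NCSCs and 72237 to 73688 cpm in Tail. In Lung the sum was 4063 to 4150 cpm, and *Crabp1* was at 1.59 cpm there. *Col3a1* was at 193 cpm, *Col1a1* at 103 cpm, *Dcn* at 9.74 cpm and *Lum* at 8.57 cpm in Wnt1Cre-mTmG Tail pNSCs. The 6 neural crest and Schwann markers summed to 15.9 to 18.7 cpm there and to 22.5 to 23.5 cpm in their brain NSCs. The part of these other cells in the *Crabp1* level was not tested.

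In the first experiment *Crabp1* sat at the limit of detection in the cultured lines, with 5 and 4 counts in Brain-NSC, 0 and 1 in Tail-pNSC and 9 and 0 in Lung-pNSC. It was lower in Tail-pNSC than in Brain-NSC (ratio 8.17, 1.13 to 358, adjusted p = 0.0374), a call that did not hold without Brain-NSC replicate 1 or 2 or Tail-pNSC replicate 1 and that DESeq2 did not make. The call against Lung-pNSC (adjusted p = 0.0318) rested on the 9 counts of Lung-pNSC replicate 1, without which the log2 fold change turned from -2.81 to 2.28, and it did not pass without Tail-pNSC replicate 1. The higher *Crabp1* of Sox2-GFP lung pNSCs (2, 3 and 4 counts) than of Sox2-GFP brain NSCs (no count in 3 libraries) passed the test with an adjusted p of 0.00391, but the bound on the fold is below 1 and none is given. Against the tissue, *Crabp1* fell by a ratio of 1730 in Tail-pNSC (310.0 to 68366), by 7.47-fold in Lung-pNSC and by 11.7-fold in Sox2-GFP lung pNSCs. The value for Lung-pNSC averages libraries with 9 and 0 counts, and its log2 fold change of -2.84 became -7.92 without the first and -1.97 without the second.

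*Crabp2* (chromosome 3, 87948666 to 87953376, plus strand), which passes retinoic acid on to the receptors in the nucleus, was counted in Tail and the DRG NCSCs and hardly elsewhere. Tail had 19.3 and 21.3 cpm and the DRG NCSCs 9.66, 7.15 and 12.8 cpm, without overlap. The 8 NSC and pNSC groups had between 0 and 8 counts per sample, and Lung had 1 count in each library. It was lower in Tail-pNSC than in Tail by a ratio of 124 (56.8 to 339.9), in Wnt1Cre-mTmG Tail pNSCs than in the DRG NCSCs by 38.7-fold and in DRG pNSCs by a ratio of 105 (35.6 to 509). No comparison among brain NSCs and pNSCs in which it was tested passed the threshold. Per kilobase of exon, *Crabp1* exceeded *Crabp2* in Tail (58.6 against 15.3 cpm) and in the DRG NCSCs (55.7 against 7.47 cpm).

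*Rarb* was the only one of the 9 genes whose highest group was a pNSC line, and it and *Aldh1a3* were the only ones with a count in each of the 28 samples. The gene spans 16430839 to 16819156 on chromosome 14, minus strand, and shares bases on the other strand with the protein-coding gene *Top2b* and the antisense transcript Gm48162. Wnt1Cre-mTmG Tail pNSCs had 4.74, 5.77 and 5.28 cpm, above every sample of every other group. Lung followed at 2.92 and 3.30 cpm. Sox2-GFP brain NSCs (2.74, 2.79 and 2.78 cpm) overlapped Wnt1Cre-mTmG brain NSCs (2.05, 1.93 and 2.87 cpm). From there down to Lung-pNSC each group overlapped the next, with 2.00 ± 0.225 cpm in Sox2-GFP lung pNSCs, 1.60 ± 0.530 in Tail, 1.48 ± 0.247 in Brain-NSC, 0.998 ± 0.393 in DRG pNSCs, 0.642 ± 0.403 in Tail-pNSC and 0.437 ± 0.0157 in Lung-pNSC. The DRG NCSCs were lowest, with 4, 7 and 7 counts.

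Among 5 comparisons of pNSCs with their brain NSCs, *Rarb* rose in 1, fell in 3 and stayed under the limit of 1 in the last. It rose 2.31-fold in Wnt1Cre-mTmG Tail pNSCs (log2 fold change 1.17, SE 0.198, adjusted p = 5.36e-05). It fell 2.31-fold in Tail-pNSC (adjusted p = 0.00620), 3.38-fold in Lung-pNSC (adjusted p = 0.000290) and 2.29-fold in DRG pNSCs (adjusted p = 0.00356). The call in Tail-pNSC was lost without Tail-pNSC replicate 2 or Brain-NSC replicate 1, and the call in DRG pNSCs without DRG pNSCs replicate 1. In Sox2-GFP lung pNSCs the log2 fold change was -0.44 (adjusted p = 0.0323). *Rarb* was 16.9-fold higher in Wnt1Cre-mTmG Tail pNSCs than in the DRG NCSCs and 5.27-fold higher than in DRG pNSCs. The fibroblast marker sums given with *Crabp1*, higher in this line than in its brain NSCs, were highest in Tail, Lung and the DRG NCSCs. *Rarb* was at 1.60, 3.11 and 0.311 cpm in these groups, and the part of such cells in its level was not tested.

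**Figure D2:**
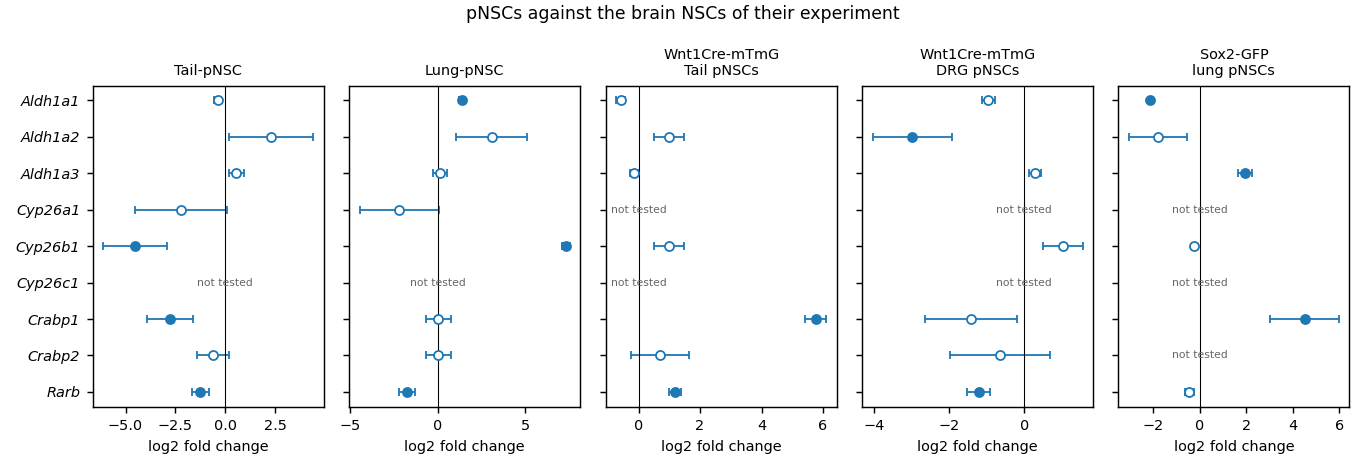
Log2 fold change of the 9 genes in each pNSC group against the brain NSCs of its experiment, on a horizontal axis with its own scale in each panel. Bars are standard errors of the edgeR fit, filled points passed both thresholds and open points did not. Values for genes with no count in one of the groups, such as *Cyp26b1* in Tail-pNSC, depend on edgeR's prior count and are not fold bounds.

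Read as a set, the genes passed the test in the following numbers against brain NSCs. In Tail-pNSC none of the 8 tested rose and 3 fell (*Cyp26b1*, *Crabp1*, *Rarb*), where 4.31% of all 16948 genes tested were higher and 6.59% lower. In Lung-pNSC 2 rose (*Aldh1a1*, *Cyp26b1*) and 1 fell (*Rarb*), beside 4.56% and 4.15% of all genes. In Wnt1Cre-mTmG Tail pNSCs 2 of 7 rose (*Crabp1*, *Rarb*) and none fell, beside 9.16% higher and 9.05% lower of 14448 genes. In DRG pNSCs none rose and 2 fell (*Aldh1a2*, *Rarb*), beside 3.12% and 6.41%. In Sox2-GFP lung pNSCs 2 of 6 rose (*Aldh1a3*, *Crabp1*) and 1 fell (*Aldh1a1*), beside 5.76% and 9.99% of 16234 genes. No single gene passed in the same direction in all 5, and several of the calls rest on the few counts described above. The 2 lines of the first experiment share Brain-NSC and the 2 of the second share their brain NSCs.

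The pNSC groups also differed among themselves. Tail-pNSC had none of the 8 genes higher than Lung-pNSC and 3 lower (*Aldh1a1*, *Cyp26b1*, *Crabp1*), where 5.00% and 7.86% of all genes were higher and lower. *Aldh1a1* was 3.34-fold lower there (adjusted p = 1.53e-35). Tail-pNSC came from postnatal and Lung-pNSC from adult mice, so tissue and age cannot be told apart between them. Wnt1Cre-mTmG Tail pNSCs had 3 of 7 genes higher than DRG pNSCs (*Aldh1a2*, *Crabp1*, *Rarb*) and none lower, beside 10.4% and 7.61% of all genes. The 6 samples of the shallower depth are the DRG pNSCs and their brain NSCs.

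Against tissue cells most of the genes fell. In Tail-pNSC 7 of the 8 tested genes were lower than in Tail and only *Aldh1a1* was higher, where 32.6% of all genes were lower and 14.1% higher. Of the 6 that did not need Tail to pass the filter, 5 were lower. In Lung-pNSC 6 of 8 were lower than in Lung and none higher, beside 34.9% and 20.2%, and the genes that did not pass were *Aldh1a3* (log2 fold change -0.70) and *Crabp2* (1.986, on 10 counts against 2). In Sox2-GFP lung pNSCs 4 of 6 were lower than in Lung and none higher, also beside 34.9% lower and 21.3% higher, and of the 4 that did not need Lung to pass the filter 2 were lower. In Tail-pNSC the fall of *Rarb* (2.50-fold, adjusted p = 0.000988) did not pass without Tail replicate 2 or Tail-pNSC replicate 2. *Rarb* was 7.10-fold below Lung in Lung-pNSC (adjusted p = 3.47e-13). In Sox2-GFP lung pNSCs *Rarb* was 1.55-fold below it (log2 fold change -0.67, adjusted p = 0.00196), under the limit of 1. Both lung comparisons use the same 2 Lung samples, which belong to the first experiment. For Sox2-GFP lung pNSCs against Lung, cell type, experiment and reporter line cannot be told apart, nor can age if the Lung cells were adult. The pNSCs grew as lines with a B27 supplement that lacks vitamin A, and whether the tissue cells were cultured is not given. Culture therefore cannot be told apart from cell type in any comparison with tissue cells. The 7 epithelial markers summed to 24932 to 25432 cpm, the 4 endothelial markers to 3869 to 3932 cpm and the 4 leukocyte markers to 4221 to 4244 cpm in Lung, against at most 0.754, 5.85 and 3.92 cpm in any NSC or pNSC sample, and the 4 mesothelial markers to 127 to 130.4 cpm in Lung against at most 5.77 cpm. In Tail the sums were 72237 to 73688 cpm for fibroblasts, 4185 to 4256 cpm for epithelium, 870 to 882 cpm for neural crest and Schwann cells and 804 to 825 cpm for endothelium, against 10.4 to 11.4, 0.174 to 0.356, 3.87 to 3.88 and 5.70 to 5.85 cpm in Tail-pNSC. The part of these cells in the differences was not tested.

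Tail and Lung cells carried different members. The part of age in these differences was not tested, and if the Lung cells were adult it cannot be told apart from tissue. Tail exceeded Lung in 4 of 8 (*Aldh1a3*, *Cyp26a1*, *Crabp1*, *Crabp2*) and was lower in 2 (*Aldh1a1*, *Aldh1a2*), where 20.5% and 22.9% of all genes were higher and lower, and *Cyp26a1* and *Crabp2* were tested because of Tail. *Aldh1a3* was 51.9-fold and *Crabp1* 29.5-fold higher in Tail. *Aldh1a1* was 720.4-fold and *Aldh1a2* 20.8-fold higher in Lung. *Cyp26b1* differed by 1.29-fold only, with a log2 fold change of 0.40 (SE 0.0408, adjusted p = 5.83e-22).

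In the second experiment all 7 tested genes passed between the DRG NCSCs and each Wnt1Cre-mTmG line, and 3 of them (*Aldh1a2*, *Cyp26b1*, *Crabp2*) were tested only because of their NCSC counts. Against the brain NSCs 5 were higher (*Aldh1a2*, *Aldh1a3*, *Cyp26b1*, *Crabp1*, *Crabp2*) and 2 lower (*Aldh1a1*, *Rarb*), beside 22.1% and 14.8% of all genes. Wnt1Cre-mTmG Tail pNSCs had 2 higher and 5 lower than the NCSCs, beside 15.3% and 22.6%. DRG pNSCs likewise had 2 higher and 5 lower, beside 15.1% and 23.3%. In both lines the higher genes were *Aldh1a1* and *Rarb*. These 3 comparisons share the NCSC samples, so the like directions are not separate evidence. Without DRG NCSCs replicate 3, the sample that stood apart, 7 genes still passed in each. For the 3 tested because of their NCSC counts, a difference had to appear. Of the genes that did not need the NCSCs to pass the filter, *Aldh1a3* and *Crabp1* were higher in them than in each Wnt1Cre-mTmG line. *Aldh1a1* and *Rarb* were lower in them. The NCSCs also held 592 to 625 cpm of the 4 leukocyte markers, mostly *Lyz2* at 525 cpm, and the fibroblast markers given above. They came from adult wild-type mice and the pNSC lines from postnatal Wnt1Cre-mTmG mice, so cell type, age and genotype cannot be told apart. The study's methods do not give the medium in which the NCSCs were derived.

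**Figure D3:**
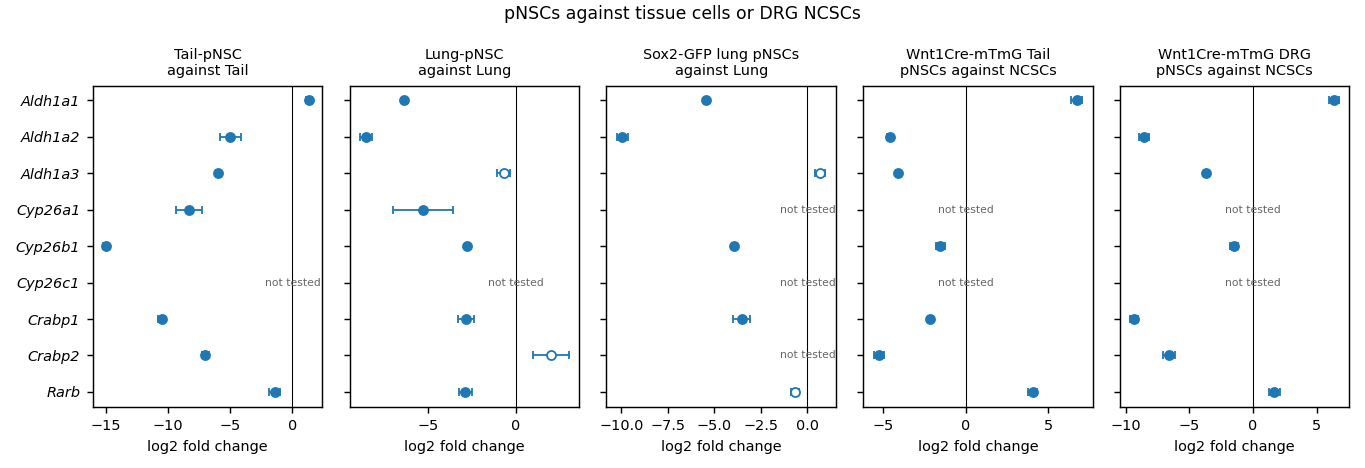
Log2 fold change of the 9 genes in pNSC groups against Tail, Lung or DRG NCSCs, on a horizontal axis with its own scale in each panel, with standard errors as bars and filled points for genes past both thresholds. *Aldh1a1* lies to the right of 0 against Tail and the DRG NCSCs and to the left against Lung, where both lung lines were 81.4-fold and 43.1-fold lower.

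The same tissue was sampled in more than 1 experiment, and the difference of the pNSC effect, each against its own brain NSCs, was tested by an interaction term, with all 28 samples in the same edgeR model. For tail, 3 of 8 genes had a larger effect in Wnt1Cre-mTmG than in the first experiment (*Crabp1*, *Cyp26b1*, *Rarb*) and none a smaller one, where 8.96% and 7.05% of 17393 genes did. *Rarb* differed by 2.43 on the log2 scale (SE 0.415, adjusted p = 5.24e-06), having risen in one and fallen in the other. For lung, 2 of 8 had a larger effect in Sox2-GFP (*Aldh1a3*, *Rarb*) and 2 a smaller one (*Aldh1a1*, *Cyp26b1*), beside 5.89% and 8.24% of all genes. The lung effects of *Aldh1a1* differed by -3.51 (SE 0.151) and those of *Cyp26b1* by -7.60 (SE 0.250). The calls of *Aldh1a3* and *Rarb* did not hold without Brain-NSC replicate 1, nor that of *Rarb* without Lung-pNSC replicate 1. *Crabp1* missed the threshold here (4.33, adjusted p = 0.0596), and its value was 9.36, past the threshold, without Lung-pNSC replicate 1. The lung lines differ in reporter and in the age of the mice as well as in experiment, and these cannot be told apart.

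**Figure D4:**
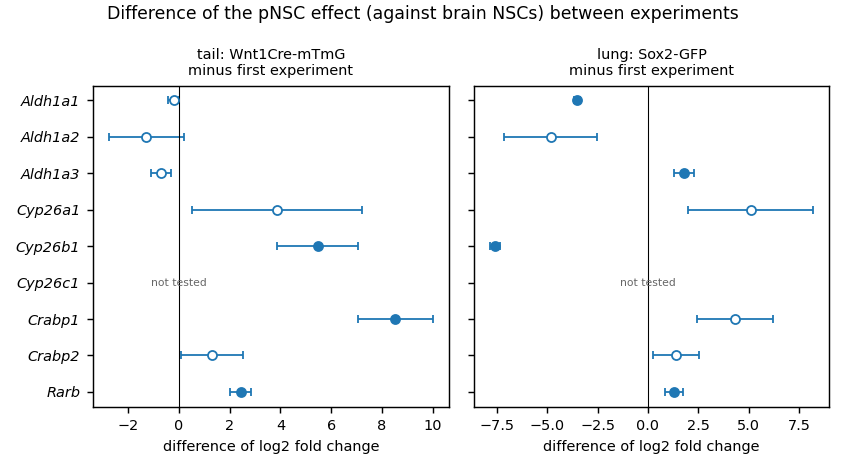
Difference of the pNSC effect between experiments for each gene, in log2 units on the horizontal axis, with the tail lines on the left and the lung lines on the right. Bars are standard errors, filled points passed both thresholds, and *Crabp1* in the tail lines (8.53) and *Cyp26b1* in the lung lines (-7.60) lay farthest from 0. The *Crabp1* value rests on 0 and 1 counts in Tail-pNSC.

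The wider pathway was read from a list of 29 genes for retinol uptake, storage, oxidation, receptors and cofactors. The corepressor *Ncor1* had 250 to 390 cpm over the 11 groups, and the alcohol dehydrogenase *Adh5* had 56.6 to 153 cpm. *Rdh10*, which makes the first oxidation step in the embryo, had 10.1 to 29.6 cpm. *Lrat*, which stores retinol as esters, had 81.2 cpm in Lung and at most 0.817 cpm in the NSC and pNSC groups. *Dhrs3*, which turns retinal back to retinol, had 142 cpm in Lung, 86.1 cpm in the DRG NCSCs, 28.7 cpm in Tail and 5.77 cpm in Sox2-GFP brain NSCs, and at most 0.627 cpm in the other 7 groups. *Rarg* had 275 cpm in Tail and 8.83 cpm or less in the NSC and pNSC groups.

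Against brain NSCs, the pathway genes that passed both thresholds were counted beside the shares of all genes. In Tail-pNSC 1 of 29 rose (*Rarg*, log2 fold change 1.52) and none fell, beside 4.31% higher and 6.59% lower. In Lung-pNSC 2 of 29 rose (*Dhrs3* 2.13, *Rara* 1.17) and 1 fell (*Rdh5*, -1.02), beside 4.56% and 4.15%. In DRG pNSCs 1 of 24 tested fell (*Bco2*, -1.004) and none rose, beside 6.41% lower and 3.12% higher. With no limit on size, 13, 14 and 10 of the genes had an adjusted p under 0.05. The median log2 fold changes were -0.02, 0.11 and -0.06, beside 0, 0 and 0.01 over all genes. With genes at 0 in one group set to their bound they were 0, 0.05 and -0.02. In Sox2-GFP lung pNSCs 6 of 27 fell and none rose, beside 9.99% lower and 5.76% higher, with *Dhrs3* at -6.78, the receptor *Rxrg* at -4.73, *Rdh5* at -2.90 and *Fabp5* at -1.41, and the median was -0.17 beside 0. Sox2-GFP brain NSCs were the NSC group with the highest *Dhrs3*, *Rxrg* and *Rdh5*, and the neural crest, Schwann and fibroblast marker sums given with *Aldh1a1* were higher in them too.

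Wnt1Cre-mTmG Tail pNSCs had 5 of 24 pathway genes higher and 2 lower than their brain NSCs, beside 9.16% higher and 9.05% lower. *Stra6*, the cell-surface receptor for retinol bound to its carrier, rose by 5.31 on the log2 scale, to 1.51 cpm. *Rara* rose by 2.21, to 33.4 cpm against 7.14 cpm in the brain NSCs, and *Dhrs3* rose by 2.30, to 0.627 cpm. The median over the list was 0.46, beside 0.00 over all genes. Against DRG pNSCs the line also had 5 higher and 2 lower, beside 10.4% and 7.61%, with *Rara* at 2.51 and *Rdh5* at 2.14. Of 12 known retinoic acid targets, a list that shares *Dhrs3*, *Stra6* and *Nrip1* with the pathway list and *Rarb*, *Cyp26a1* and *Crabp2* with the 9 genes, 8 were tested against brain NSCs, 6 rose and none fell, beside the same 9.16% and 9.05%, and the median log2 fold change was 1.80 beside 0.00 over all genes. The fibroblast markers summed to 418 to 428 cpm in this line and to 33.1 to 33.9 cpm in its brain NSCs, and their part in these counts was not tested. In the shallower libraries of its brain NSCs, 3 counts stood for 0.253 to 0.289 cpm, against 0.133 to 0.152 cpm in this line. Which pathway and target genes passed the filter on low counts through this line alone was not determined. For any such gene a rise in this line had to appear. Among the 6 targets that rose were *Rarb*, *Stra6*, *Dhrs3*, *Hoxd4* (9.89) and *Tgm2* (1.30). In the other lines the same list gave 1 higher and 1 lower of 9 in Tail-pNSC (median -0.02), 1 higher and 2 lower of 9 in Lung-pNSC (0.03), 2 higher and 1 lower of 8 in DRG pNSCs (-0.21) and none higher and 1 lower of 5 in Sox2-GFP lung pNSCs (0.04). *Tgm2* was among those lower in Lung-pNSC (log2 fold change -3.31, adjusted p = 9.75e-09).

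*Hoxd4*, an anterior *Hox* gene, rose in every tail and DRG line against its brain NSCs. It was at 0 in Brain-NSC and Wnt1Cre-mTmG brain NSCs and at 4.30 cpm in Tail-pNSC, 3.29 cpm in DRG pNSCs and 7.57 cpm in Wnt1Cre-mTmG Tail pNSCs. It also rose in the lines where *Rarb* fell, by 9.28 in Tail-pNSC (adjusted p = 2.08e-33) and by 8.71 in DRG pNSCs (adjusted p = 8.93e-09), values that depend on the prior count because the brain NSCs had no count. In Lung-pNSC and Sox2-GFP lung pNSCs it had no count. Of the other targets *Hoxb1*, *Cdx1* and *Stra8* were at or below 0.395 cpm in every group. The crosslinking enzyme *Tgm2* was at 463 cpm in Lung and 51.3 cpm in Tail and at most 2.76 cpm in the NSC and pNSC groups.

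Against tissue cells and NCSCs more genes of the pathway list fell than rose, as in the whole table. In Tail-pNSC against Tail 16 of 29 fell and 1 rose, beside 32.6% lower and 14.1% higher, with a median log2 fold change of -1.48 beside -0.16 over all genes. In Lung-pNSC against Lung 18 fell and 4 rose, beside 34.9% and 20.2% (median -1.72 beside -0.15). The Sox2-GFP lung pNSCs had 16 of 27 lower and 3 higher than Lung, beside 34.9% and 21.3% (-1.50 beside -0.12). *Adh1*, a retinol-oxidising alcohol dehydrogenase, fell most in both lung lines, with log2 fold changes of -13.69 in Lung-pNSC and -13.79 in Sox2-GFP lung pNSCs, and *Lrat* had -8.83 and -9.98. Against the DRG NCSCs 7 of 24 fell and 2 rose in Wnt1Cre-mTmG Tail pNSCs, beside 22.6% and 15.3% (median -0.28 beside 0.00), and 11 fell and 1 rose in DRG pNSCs, beside 23.3% and 15.1% (-0.68, or -0.57 with bounds, beside 0.00), led by *Dhrs3*, *Adh7* and *Rxrg* in both. The DRG NCSCs had 52.5 cpm of *Rxrg*, more than in any other group. For the pathway list, which genes passed the filter on low counts through Tail, Lung or the DRG NCSCs alone was not determined. For any such gene a fall from that group had to appear, so these counts are not like for like with the shares of all genes.

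**Figure D5:**
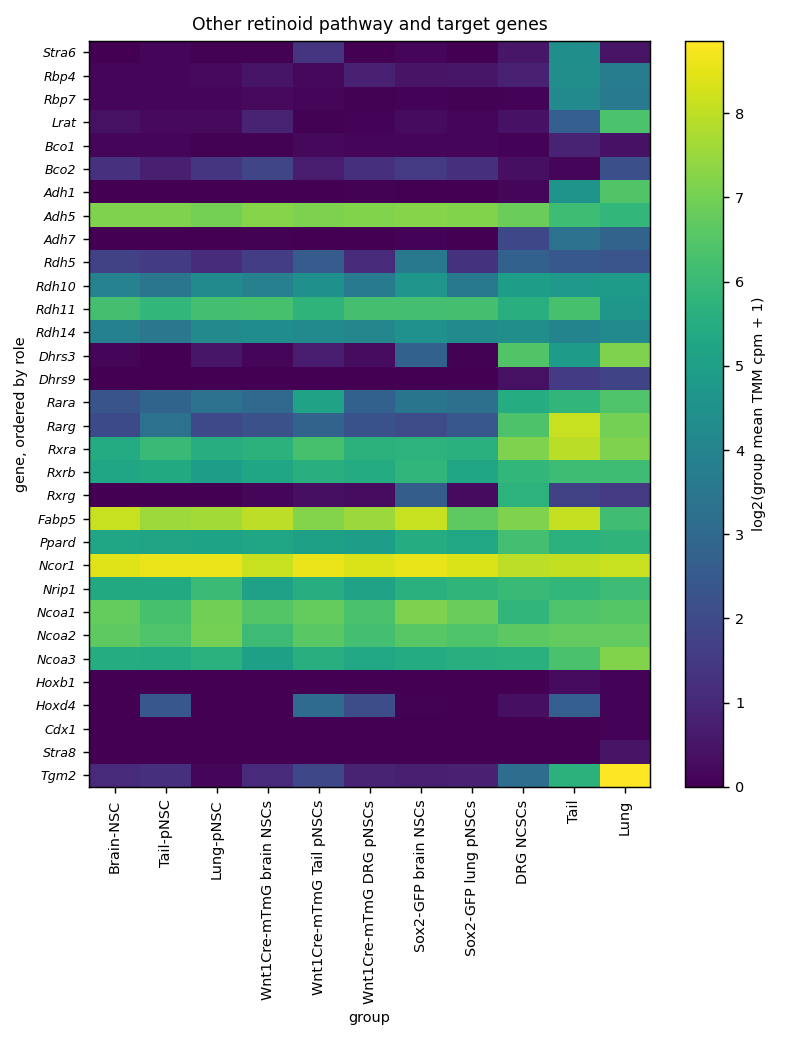
Mean level of 32 other genes of the retinoid pathway and its targets in the 11 groups, as log2(TMM cpm + 1) by colour, with genes ordered by role from retinol uptake at the top through receptors and cofactors to targets at the bottom. *Lrat*, *Adh1*, *Dhrs3*, *Rarg* and *Tgm2* are bright in the tissue columns, and *Rara* is brighter in Wnt1Cre-mTmG Tail pNSCs (33.4 cpm) than in the other NSC and pNSC columns.

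For each of the 7 genes that reached 5 cpm in a group, the genes with the most similar pattern were looked up by Pearson's r over the 11 group means, on log2(cpm + 1), among 14437 genes. The points share libraries, and the coefficients are descriptions. *Crabp2* had the closest neighbours, *B4galnt3* (r = 0.997), *Clca3a2* (0.996) and *Sprr1a* (0.992). *Aldh1a2* was closest to 4632428C04Rik (0.992), E030013I19Rik (0.988) and *Ms4a6d* (0.985), and *Crabp1* to *Zdbf2* (0.979), *Col15a1* (0.953) and *Ahrr* (0.953). *Ahrr* also appeared for *Aldh1a3* (0.961), after *Ackr1* (0.975) and *Col16a1* (0.961). *Aldh1a1* was closest to *Taok3* (0.952), *Bend7* (0.945) and the catalase gene *Cat* (0.945), and *Cyp26b1* to *Ndst2* (0.940), *Pex26* (0.929) and *Mecom* (0.928). *Rarb* had the weakest, *Fndc5* (0.896), *Hscb* (0.875) and *Cep70* (0.874).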

How the data were processed

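RNA-seq of polyA-selected RNA (NEBNext Ultra RNA kit, single-end NextSeq500) was analysed in 28 samples of 11 groups. The authors aligned reads to GRCm38 with HISAT2, annotated them with Cufflinks and counted them per gene with HTSeq, and the values they deposited are raw counts per gene, with no normalization. Strand setting, counting mode and annotation release are not given in the sources used here.

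Groups and replicate numbers came from the sample labels. Counts were tested with edgeR 4.0.16 in R 4.3.3. In each of 3 experiments, low genes were removed by edgeR's filterByExpr function with a count of 10 and a total of 15 as minima, libraries were scaled by TMM, and counts were fitted with a quasi-likelihood model over all groups, for 14 two-sided comparisons in all. Differences between experiments were 2 interaction tests in 1 fit over all samples. p-values were adjusted by Benjamini–Hochberg over all genes tested. Standard errors were the log2 fold change divided by the root of the F statistic. Folds are ratios of mean cpm, given as bounds against 3 counts per library where a group had none, and with exact 95% counting intervals at 1 to 3 counts, which cover counting error only. Positions and exon lengths came from GENCODE M21 on GRCm38, and upstream sequences from RefSeq on GRCm38.p6.

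The 9 genes and all lists were chosen with earlier results of these data known. All 9 genes are named. Of the pathway and target lists, up to 5 genes per comparison that passed both thresholds are named by size of log2 fold change, other pathway and marker genes named with levels were picked after their values were seen, and the 3 most similar genes are named for each gene reaching 5 cpm. Some genes of these lists are not reported here. The alternatives were DESeq2 1.42.0, other scalings (DESeq2 size factors, upper quartile), no filter, a mean count of at least 100, no limit on the fold change, a fit of the compared groups alone, a block for the replicate number, and each sample left out in turn. The fits were tested on simulated data in which only well-counted genes were changed, so that test does not cover calls resting on a few counts. Python 3.11.15, pandas 2.3.3 and matplotlib 3.10.9 made the tables and figures.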

Additional observations from a re-analysis of the deposited data

Results flagged for a closer look

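The effect of being a pNSC, each against the brain NSCs of its own experiment, differed between experiments in 7 cases by the interaction term of 1 edgeR fit over all 28 samples. For the tail lines, the Wnt1Cre-mTmG effect exceeded that of the first experiment by 8.53 on the log2 scale for *Crabp1* (SE 1.46), by 5.46 for *Cyp26b1* (SE 1.58) and by 2.43 for *Rarb* (SE 0.415). The size for *Crabp1* rests in the first experiment on 0 and 1 counts in Tail-pNSC and 5 and 4 counts in Brain-NSC. *Cyp26b1* rests on at most 16 counts in any of these libraries and was not past the threshold in Wnt1Cre-mTmG Tail pNSCs themselves (log2 fold change 0.99, adjusted p = 0.0768). For the lung lines, the Sox2-GFP effect minus that of the first experiment was -3.51 for *Aldh1a1* (SE 0.151), -7.60 for *Cyp26b1* (SE 0.250), 1.80 for *Aldh1a3* (SE 0.496) and 1.32 for *Rarb* (SE 0.446). In the lung case *Cyp26b1* was at 25.3 and 11.3 cpm in the pNSC lines of the first and the Sox2-GFP experiment and at 0.149 and 13.8 cpm in their brain NSCs. Experiment, reporter line and age of the mice cannot be told apart in these differences.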

How the results depend on the processing

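Of 106 log2 fold changes of the 9 genes over the comparisons, 106 kept their direction and side of the thresholds under DESeq2 size factors, under upper-quartile scaling and with a replicate block, 105 with no filter and 100 with DESeq2. Samples with the same replicate number did not deviate together (correlations of deviations from -0.0460 to 0.0979), so the numbers were not taken as pairs, and with the replicate block the number of genes past the thresholds was unchanged in all 16 comparisons, for example 3 in Tail-pNSC against Brain-NSC. A mean count of at least 100 removed low genes from the test and lowered the number past the thresholds to 2 in DRG NCSCs against brain NSCs, DRG pNSCs and Wnt1Cre-mTmG Tail pNSCs against DRG NCSCs and Sox2-GFP lung pNSCs against Lung, to 3 in Lung-pNSC against Lung and Tail against Lung, to 4 in Tail-pNSC against Tail, to 1 in Wnt1Cre-mTmG Tail pNSCs against brain NSCs and DRG pNSCs and in Sox2-GFP lung pNSCs against brain NSCs, and to 0 in DRG pNSCs against brain NSCs. Without a limit on the fold change it rose from 3 to 5 in Sox2-GFP lung pNSCs against brain NSCs, from 4 to 6 in the same line against Lung, from 6 to 8 in Tail against Lung, from 2 to 3 in each Wnt1Cre-mTmG pNSC line against brain NSCs and from 3 to 4 between those lines. In a fit of only the groups compared it fell to 1 in Tail-pNSC against Brain-NSC and in DRG pNSCs against brain NSCs, from 3 to 2 in Sox2-GFP lung pNSCs against brain NSCs, Tail-pNSC against Lung-pNSC and Wnt1Cre-mTmG Tail pNSCs against DRG pNSCs, from 6 to 5 in Lung-pNSC against Lung and from 7 to 6 in DRG pNSCs against DRG NCSCs. The causes other than fewer genes tested were not tested. With DESeq2 the calls of *Crabp1* in Tail-pNSC against Brain-NSC (-3.06) and Lung-pNSC (-3.07) and of *Cyp26a1* in Tail-pNSC against Tail (-7.85), Lung-pNSC against Lung (-4.82) and Tail against Lung (3.09) were lost. *Crabp1* in the lung interaction (4.33, adjusted p = 0.0596) passed with DESeq2 (3.75, adjusted p = 0.0244), with no filter (4.30, 0.0149) and without DRG NCSCs replicate 2 or 3 or Lung-pNSC replicate 1 (adjusted p from 0.00365 to 0.0356). Of the mean levels by group, 13 moved by more than 1 s.d. under DESeq2 size factors and 5 under upper-quartile scaling, most of them in Lung and Tail. Leaving out 1 sample at a time gave 0 to 3 genes in Tail-pNSC against Brain-NSC, 1 to 2 in DRG pNSCs against brain NSCs and 2 to 5 for the lung interaction, the 2 being without Brain-NSC replicate 1. Directions turned with 1 sample left out for low genes. The log2 fold changes ran from -0.52 to 0.64 (*Aldh1a3*), -5.04 to 0.90 (*Crabp1*) and -1.11 to 0.59 (*Crabp2*) in Lung-pNSC against Brain-NSC, from -0.0056 to 1.03 (*Aldh1a3*) in Tail-pNSC against Brain-NSC, and from -0.13 to 1.08 (*Aldh1a3*), -5.09 to 2.28 (*Crabp1*), -1.19 to 0.51 (*Crabp2*) and -0.28 to 1.07 (*Rarb*) in Tail-pNSC against Lung-pNSC. They ran from -6.22 to 0 for *Cyp26a1* in Lung-pNSC against Lung, from -0.28 to 0.0716 for *Cyp26b1* in Wnt1Cre-mTmG Tail pNSCs against DRG pNSCs and from -2.19 to 0.97 for *Aldh1a2* in the tail interaction. Levels at or below 3 counts per library are not detectable as differences at this depth.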
